A study of Mus musculus with 24 samples.

Results

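Macrophages of the embryonic gut were followed through 39 genes in the whole gut of 24 mouse embryos, taken at embryonic day 12.5. The set holds 37 genes known from macrophages, among them Csf1r, the receptor for colony stimulating factor 1, and the 2 ligands of that receptor, Csf1 and Il34. They were chosen by symbol and known role, with earlier results of these data known. They are 39 of the 26260 genes that the 4 deposited tables list between them. All 39 stood in every table.

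Tissue macrophages depend on signals through the CSF1 receptor, a tyrosine kinase of their surface, for survival and growth. CSF1 is made by many stromal cells and IL-34 mainly by neurons and epidermis. In the gut wall, macrophages lie beside the enteric nerve plexus, clear dying cells and debris with the help of complement C1q and Fc receptors, and in the adult exchange signals with enteric neurons, which are one source of CSF1.

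Poly-A RNA was measured in 4 genotypes: wildtype, homozygous Ret null, homozygous Sema3d null and the homozygous Ret-Sema3d double null. Each genotype had 6 guts, 3 from females and 3 from males, and all genotypes, wildtype included, had the same mixed C57BL/6, 129/Sv and C3H background. The labels do not name the alleles. Ret encodes the receptor tyrosine kinase that neural crest cells need to colonise the gut as neurons and glia, and Sema3d encodes a secreted guidance cue. Each gut is a whole organ, so fewer macrophages and less RNA per macrophage cannot be told apart.

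The authors deposited a model fit per comparison and no value per gut, so the library depths are unknown, and a level below is the fitted level of a genotype in normalised counts. Such levels come from the authors' deposited table of all 24 guts, averaged over the sexes. A change is the log2 coefficient of a 12-gut table that sets 6 null guts against 6 wildtype guts with sex as a covariate. The value after ± is a standard error derived here from the deposited deviances, and a gene was called when its deposited adjusted p was below 0.05. The 3 comparisons share the same 6 wildtype guts, so their values for a gene are set side by side and not counted as separate evidence. The interaction asks whether the Ret change differed with and without Sema3d. The targeted genes were checked first: in the authors' deposited table of 24 guts Ret stood at 0.310% of wildtype in its own null and 0.0758% in the double null, while Sema3d RNA stood at 47.7% and 48.5% in its single and double null and at 83.1% in Ret null guts. The 12-gut change of Sema3d in Ret null guts was -0.27 ± 0.06 in the authors' deposited table.

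The guts held a clear macrophage signature. The 8 genes taken as defining markers (Csf1r, Adgre1, Cx3cr1, C1qa, C1qb, C1qc, Fcgr1 and Mrc1) had wildtype levels from 21.5 to 392 in the authors' deposited table. Apart from erythroid genes, most of the listed markers of other blood cells had low fitted levels in the authors' deposited table, though no detection limit was derived. The 9 erythroid markers had wildtype levels from 46.1 to 12588 in the authors' deposited table, and 0 of them lay below 10. Ly6c2 (0.95) and Chil3 (0.14) of monocytes, Ly6g (0.35) and Elane (0.73) of neutrophils, and Cd3g (0.50) and Trbc2 (0.89) of T cells all lay below a level of 1, and Fcer1a of mast cells and Cd8a of T cells were fitted at about 0. By list, 3 of 4 monocyte, 7 of 9 neutrophil, 6 of 8 mast cell, 5 of 7 T cell, 2 of 4 B cell, 5 of 6 dendritic cell and 3 of 8 megakaryocyte and platelet markers lay below 10 in the authors' deposited table. Beside the erythroid genes, the highest exception there was Zbtb46 of dendritic cells (309), which endothelium also makes. Next came Plek (101) and Itga2b (75.6) of platelets and megakaryocytes, Gata2 of mast cells (71.7) and Gata3 of T cells (51.4). Others included Mpo (31.5) and Prtn3 (25.8) of granulocyte progenitors, Ccr2 (15.3) of monocytes and Ighm (42.2) of B cells. Some members are not particular to macrophages: Pf4 and F13a1 are also platelet or megakaryocyte genes, and Ptprc, Lcp1, Coro1a, Vav1 and Hcls1 are active in most white blood cells.

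Levels across the set differed widely. In counts not corrected for gene length, Lcp1, an actin-bundling protein of white blood cells, had the highest fitted level in wildtype guts of the authors' deposited table (468). It was followed by the mannose receptor Mrc1 (392), Csf1r (351), Csf1 (267) and the lysosomal membrane protein Laptm5 (241). At the other end of the authors' deposited table stood the haemoglobin scavenger receptor Cd163 (0.753), the phosphatidylserine receptor Timd4 (1.35), Il34 (3.25), the folate receptor Folr2 (3.97) and Ms4a7 (8.19), a membrane protein of mature macrophages. Per kilobase of exon, levels derived from the authors' deposited table were highest for the complement genes C1qb (104) and C1qa (85.5), with Mrc1 at 61.5, Csf1r at 60.7 and its ligand Csf1 at 50.6. Cd163, Timd4 and Folr2, which mark many adult resident macrophages, reached 0.138, 0.621 and 2.57 per kilobase in the same values from the authors' deposited table. Il34 reached 1.66 per kilobase by the same reckoning from the authors' deposited table, against the 50.6 of Csf1.

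**Figure D1:**
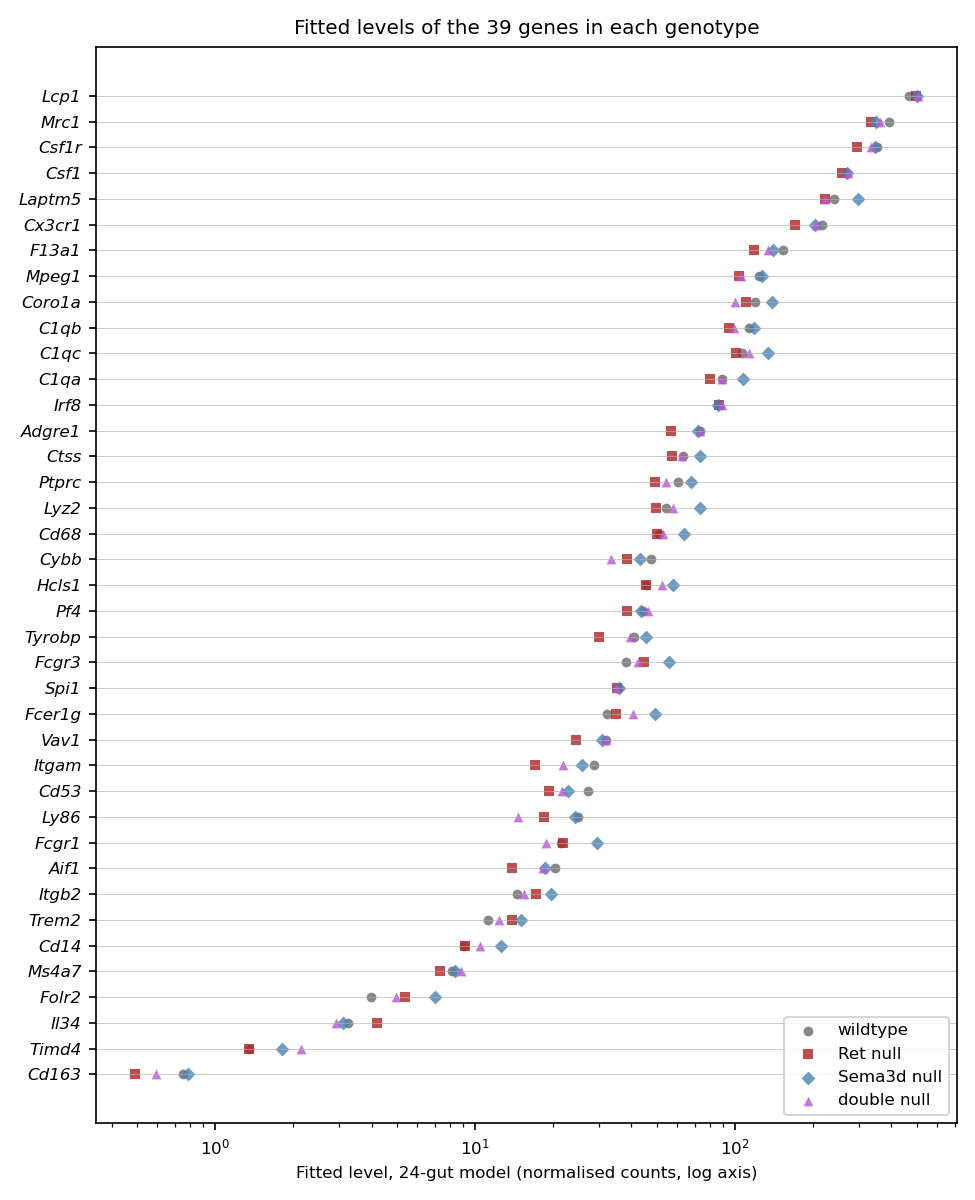
Fitted levels of the 39 genes in the 4 genotypes (x axis, normalised counts from the 24-gut model, log axis; 1 row per gene, sorted by wildtype level; 6 guts per genotype). The symbols of a gene lie close together for the abundant genes, and Ret null symbols tend to lie left of wildtype ones between levels of 50 and 392.

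In none of the comparisons was a member called. The authors' likelihood-ratio test from DESeq called 0 of 39 in the Ret null table, where 2.66% of all tested genes were called, 0 of 39 in the Sema3d null table (0.0404% of all), 0 of 39 in the double null table (2.1%) and 0 of 39 for the interaction (0.164%). No other tool could be run on these tables. The smallest adjusted p of a member in the authors' deposited tables was 0.0904 (Mrc1) after loss of Ret, 0.620 (Fcer1g) after loss of Sema3d, 0.350 (Cybb) after loss of both and 0.562 (Fcgr3) in the interaction.

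The CSF1 receptor axis itself was measured precisely for Csf1r and Csf1 and hardly at all for Il34. Csf1r had fitted levels of 351 in wildtype, 296 in Ret null, 346 in Sema3d null and 333 in double null guts of the authors' deposited table. Its log2 change in the authors' deposited tables was -0.25 ± 0.09 after loss of Ret (p = 0.00613, adjusted p = 0.165), -0.02 ± 0.11 after loss of Sema3d and -0.07 ± 0.08 after loss of both. The derived 95% interval of the Ret null value lay below 0 but the adjusted threshold was not passed, and the other values were within their errors. Its interaction coefficient in the authors' deposited table was 0.19 ± 0.13 (adjusted p = 0.856).

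Csf1 (ENSMUSG00000014599.10; chromosome 3, 107741048 to 107760469 in GRCm38, minus strand) stayed within a narrow band. Its levels in the authors' deposited table were 267 in wildtype, 259 in Ret null, 270 in Sema3d null and 273 in double null guts. The log2 changes in the authors' deposited tables were -0.05 ± 0.09, 0.02 ± 0.11 and 0.03 ± 0.09 in that order, with an interaction of 0.06 ± 0.14. The 95% interval derived from the authors' deposited Ret null table reached from 0.861-fold to 1.09-fold of wildtype, and the double null one from 0.909-fold to 1.15-fold. Ret null and double null guts lacked most of their enteric neuron signal at the same time. The 9 neuronal markers (among them Tubb3 and Elavl4) summed to 11.3% of wildtype without Ret and 12.2% without both genes in the authors' deposited table, against 94.6% without Sema3d. The part of enteric neurons in the Csf1 level of the whole gut was not tested. Il34 was fitted at 3.25, 4.2, 3.12 and 2.91 in the authors' deposited table. Its log2 changes there were 0.37 ± 0.65, -0.06 ± 0.70 and -0.17 ± 0.71 in the same order of nulls, with an interaction of -0.47 ± 0.88. With errors of that width a 2-fold change of Il34 was not detectable in these data.

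Ret null guts were set against wildtype to see what the loss of Ret does alone. Here macrophage genes were mostly lower by small amounts, none past the adjusted threshold. In the authors' deposited table, 29 of 39 members had a coefficient below 0, with a median of -0.14, while the median over all genes fitted at 50 or more was 0.01. Of the 6 members with a wildtype level of at least 200, 5 were below 0, all but Lcp1, and so were 12 of the 12 members between 50 and 200. Over all genes fitted at 50 or more in the authors' deposited table, 46.1% were below 0. At an unadjusted p below 0.05, 7 members (17.9%) were lower and 0 were higher in the authors' deposited table, where 5.47% of all genes were lower and 2.96% higher by that rule. The members were all measured in the same 12 guts, and many are active in the same cells. Such counts of members, here and below, are therefore not counts of separate observations.

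The 7 were Csf1r and 6 other genes, all of them known on the macrophage surface or secreted by it. Mrc1 (chromosome 2, 14229392 to 14332057, plus strand), the mannose receptor that takes up glycoproteins, had levels of 392 in wildtype and 335 in Ret null guts, with 349 in Sema3d null and 363 in double null guts of the authors' deposited table. Its log2 change for Ret null in the authors' deposited table was -0.23 ± 0.08 (p = 0.00276), beside -0.16 ± 0.11 in the Sema3d and -0.11 ± 0.09 in the double null. All 3 nulls lay below wildtype for Mrc1, in the Sema3d and double null within the 95% interval. Cx3cr1, the fractalkine receptor of tissue macrophages and microglia, had levels of 217, 171, 203 and 204 in the 4 genotypes (wildtype, then Ret, Sema3d and double null) of the authors' deposited table. The corresponding log2 changes of Cx3cr1 in the authors' deposited tables were -0.34 ± 0.12 (p = 0.00381, adjusted p = 0.117), -0.09 ± 0.12 and -0.08 ± 0.13. Its ligand gene Cx3cl1 had a change of 0.12 ± 0.16 in Ret null guts of the authors' deposited table.

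Itgam (chromosome 7, 128062640 to 128118491, plus strand), the alpha chain of the complement receptor CR3, had the lowest coefficient of the set in Ret null guts. Its levels in the authors' deposited table were 28.8 in wildtype, 17 in Ret null, 25.8 in Sema3d null and 21.7 in double null guts. The log2 changes in the authors' deposited tables were -0.77 ± 0.27 (p = 0.00420, adjusted p = 0.124), -0.15 ± 0.29 and -0.41 ± 0.26. Itgb2, the beta chain that pairs with it, went the other way within its error, at 0.23 ± 0.32 in Ret null guts of the authors' deposited table (wildtype level 14.5). Adgre1, which encodes the F4/80 antigen, had levels of 73.4, 56.9, 72.3 and 73.6 in the 4 genotypes (wildtype, then Ret, Sema3d and double null) of the authors' deposited table. For Adgre1 the log2 changes in the authors' deposited tables were -0.36 ± 0.16 (p = 0.0236, adjusted p = 0.400), -0.01 ± 0.17 and 0.01 ± 0.16. Tyrobp, the adaptor DAP12 that carries signals of Trem2 and other receptors, had levels of 41.0, 29.9, 45.7 and 39.5 in the same order in the authors' deposited table. Its log2 changes in the authors' deposited tables were -0.46 ± 0.22 (p = 0.0341, adjusted p = 0.492), 0.16 ± 0.23 and -0.05 ± 0.20. For Cx3cr1, Adgre1 and Tyrobp the double null values lay within 1 error of 0, but the test of the difference, the interaction given further on, passed the adjusted threshold for none of them.

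Complement C1q is built from 3 chains whose genes lie side by side on chromosome 4 (136880129 to 136898803, GRCm38), and tissue macrophages are its main source. Their differences were small in Ret null guts. C1qb had levels of 114, 95.1, 119 and 99.4 in the 4 genotypes (wildtype, then Ret, Sema3d and double null) of the authors' deposited table, C1qa 88.9, 80.2, 107 and 88.9, and C1qc 107, 101, 134 and 114. The Ret null log2 changes in the authors' deposited table were -0.26 ± 0.13 for C1qb (p = 0.0476, adjusted p = 0.580), -0.15 ± 0.14 for C1qa and -0.08 ± 0.13 for C1qc. In Sema3d null guts of the authors' deposited table they were 0.07 ± 0.18, 0.28 ± 0.15 and 0.33 ± 0.14 in the same order. For double null guts the authors' deposited table gave -0.18 ± 0.13, 0.00 ± 0.14 and 0.09 ± 0.13.

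Among the genes of lysosome, phagosome and secretion, 8 of 8 had a coefficient below 0 in Ret null guts of the authors' deposited table, 0 of them called. They ran from F13a1, the clotting factor XIII A chain, at -0.38 ± 0.20, through Cybb, the catalytic subunit of the phagocyte oxidase, at -0.30 ± 0.28 and the pore-forming protein Mpeg1 at -0.25 ± 0.17, to the lysosomal glycoprotein Cd68 at -0.02 ± 0.18. The group of Fc receptors, their adaptors and Trem2 went the other way. Only 1 of its 5 genes, Tyrobp, was below 0 in Ret null guts of the authors' deposited table, and its median was 0.14. The master regulators of the lineage gave values near 0. Spi1, which encodes PU.1, had levels of 35.4, 35.2, 35.8 and 35.0 in the 4 genotypes (wildtype, then Ret, Sema3d and double null) of the authors' deposited table, and Irf8 87.0, 86.5, 86.2 and 89.4. The Ret null log2 changes were -0.00 ± 0.22 for Spi1 and -0.01 ± 0.14 for Irf8 in the authors' deposited table. Lcp1 (468, 497, 502 and 506) had 0.08 ± 0.07, 0.10 ± 0.10 and 0.11 ± 0.07 in the 3 nulls and an interaction of -0.07 ± 0.12 in the authors' deposited tables.

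The other members had wider errors. Of the 9 integrin, signalling and cytoskeleton genes of white blood cells, 7 had a coefficient below 0 in Ret null guts of the authors' deposited table. Beside Itgam these were the actin-binding protein Aif1 at -0.54 ± 0.31, the tetraspanin Cd53 at -0.51 ± 0.26, the exchange factor Vav1 at -0.40 ± 0.28, the phosphatase CD45 (Ptprc) at -0.28 ± 0.18, the coronin Coro1a at -0.11 ± 0.13 and the cortactin relative Hcls1 at -0.00 ± 0.21 in the authors' deposited table. Aif1 and Cd53 were the lowest members after Itgam. In the same comparison of the authors' deposited table, lysozyme (Lyz2) was at -0.12 ± 0.26, the protease cathepsin S (Ctss) at -0.14 ± 0.21 and the chemokine Pf4 at -0.21 ± 0.37. The high-affinity IgG receptor Fcgr1 was at 0.02 ± 0.27, the lipid receptor Trem2 at 0.31 ± 0.36 and the LPS co-receptor Cd14 at 0.02 ± 0.42 there. In Sema3d null guts of the authors' deposited table Fcgr1 had 0.47 ± 0.26, Trem2 0.43 ± 0.35, Cd14 0.49 ± 0.42, Lyz2 0.43 ± 0.30, Hcls1 0.35 ± 0.22 and Cd68 0.33 ± 0.18, all above 0 and none past an unadjusted p of 0.05.

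Summed over the 37 macrophage genes, levels computed from the authors' deposited table were 89.7% of wildtype without Ret, 106% without Sema3d and 96.3% without both. For the 8 defining markers alone the sums were 84.8%, 99.7% and 95%. These 8 include 5 of the 7 members that were lower at an unadjusted p below 0.05 in Ret null guts. Their sum is therefore no separate measure of macrophages. Marker sums of other gut cells are set beside them, without errors. Enteric glia and progenitor markers summed to 40.3%, 92.6% and 41.1% of wildtype in the authors' deposited table, endothelial markers to 100%, 109% and 119%, smooth muscle markers to 93.4%, 121% and 103%, erythroid genes to 114%, 121% and 109%, and epithelial markers to 103%, 101% and 103%. The part of these differences in the macrophage values was not tested.

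**Figure D2:**
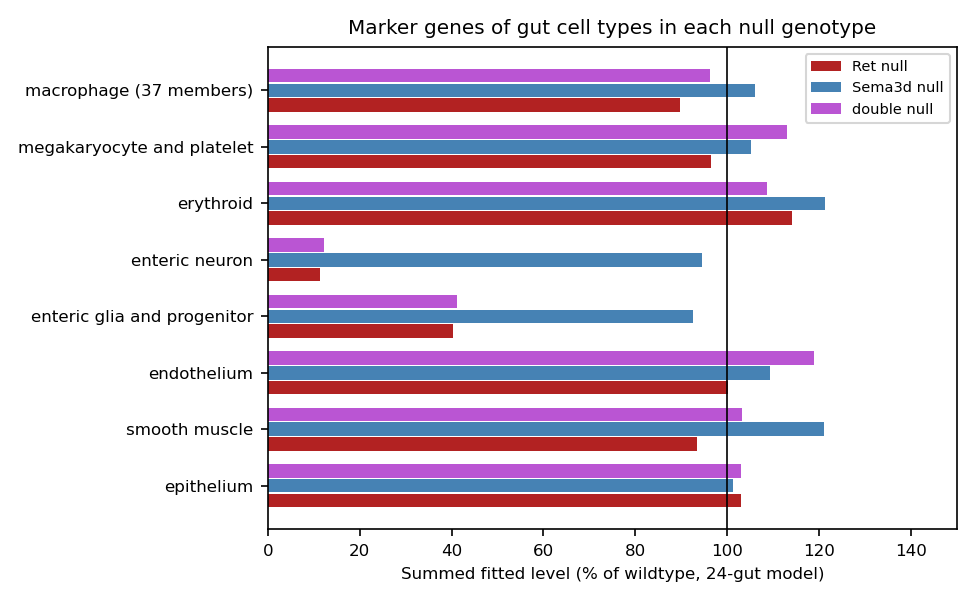
Summed fitted levels of marker genes in guts null for Ret, Sema3d or both (x axis, % of the wildtype sum, 24-gut model; bars start at 0, the line marks 100; sums carry no error because the tables hold no value per gut). Neuronal markers stand at 11.3% and 12.2% of wildtype in Ret null and double null guts, and the 37 macrophage genes at 89.7% and 96.3%.

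Stretches upstream of gene starts are shown for Csf1, as the ligand gene measured near its wildtype level in every null, and for C1qb, Mrc1 and Itgam, as members with an unadjusted p below 0.05 in Ret null guts. PU.1, the product of Spi1, binds purine-rich sites with a GGAA centre in macrophage genes. Capitals mark GAGGAA, or TTCCTC where it lies on the other strand. Sequences are from RefSeq (GRCm38.p6), 5′ to 3′ on the strand of the gene, and end before the first exon base in GENCODE M21. The entry of Cx3cr1 is not shown because it overlaps an annotated exon.
Csf1, chr3:107760470-107760719, minus strand: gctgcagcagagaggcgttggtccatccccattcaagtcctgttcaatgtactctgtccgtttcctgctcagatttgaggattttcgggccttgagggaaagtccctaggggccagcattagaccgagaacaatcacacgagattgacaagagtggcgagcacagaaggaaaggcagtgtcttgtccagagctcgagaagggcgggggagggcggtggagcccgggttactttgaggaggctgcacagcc
C1qb, chr4:136886201-136886450, minus strand: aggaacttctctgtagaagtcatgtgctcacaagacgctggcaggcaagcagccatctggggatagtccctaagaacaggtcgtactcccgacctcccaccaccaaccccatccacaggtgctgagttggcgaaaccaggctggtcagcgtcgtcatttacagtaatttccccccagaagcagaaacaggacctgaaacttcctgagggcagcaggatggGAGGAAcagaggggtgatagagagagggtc
Mrc1, chr2:14229164-14229391, plus strand: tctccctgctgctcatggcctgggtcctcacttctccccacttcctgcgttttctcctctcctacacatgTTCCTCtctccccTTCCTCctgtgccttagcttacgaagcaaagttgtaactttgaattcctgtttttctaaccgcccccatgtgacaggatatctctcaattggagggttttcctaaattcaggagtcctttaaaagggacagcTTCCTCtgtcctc
Itgam, chr7:128062390-128062639, plus strand: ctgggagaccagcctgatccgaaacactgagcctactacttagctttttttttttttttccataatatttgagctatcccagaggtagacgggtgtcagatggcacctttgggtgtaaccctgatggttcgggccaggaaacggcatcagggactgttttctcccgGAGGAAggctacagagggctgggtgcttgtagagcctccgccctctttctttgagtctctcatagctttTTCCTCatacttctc
The Csf1 stretch held 0 matches, that of C1qb 1, that of Mrc1 3 and that of Itgam 2. Over windows of 300 bases (250 before to 50 after a start), 18 of the 31 members with an entry (58.1%) held GAGGAA on either strand in at least 1 promoter, against 31.3% of all 27025 genes and 28.3% of all 32851 promoters. The longer GAGGAAGT, which contains the former, was found in 6 of 31 (19.4%) against 3.69% of all genes and 3.20% of all promoters. These were C1qc, Ctss, Cd53, Pf4, F13a1 and Vav1. A match describes letters only. C1qa, Cd14, Csf1r, Adgre1, Tyrobp, Spi1, Itgb2 and Il34 had no entry.

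Sema3d null guts leaned the other way. In the authors' deposited table, 25 of 39 members had a coefficient above 0, with a median of 0.10 against 0.00 for all genes fitted at 50 or more. At an unadjusted p below 0.05, 4 members (10.3%) were higher and 0 lower in the authors' deposited table, where 2.19% of all genes were higher and 2.35% lower. Fcer1g, the signalling chain shared by Fc receptors, had levels of 32.1, 34.8, 49.3 and 40.6 in the 4 genotypes (wildtype, then Ret, Sema3d and double null) of the authors' deposited table. Its log2 changes in the authors' deposited tables were 0.14 ± 0.22, 0.64 ± 0.21 (p = 0.00271, adjusted p = 0.620) and 0.32 ± 0.21 in the Ret, Sema3d and double null. Fcgr3, a low-affinity IgG receptor that signals through Fcer1g, had levels of 38.1, 44.7, 56.0 and 42.5 in the authors' deposited table. The log2 changes of Fcgr3 in the authors' deposited tables were 0.24 ± 0.20, 0.56 ± 0.20 (p = 0.00499, adjusted p = 0.773) and 0.17 ± 0.22. Both genes were highest in Sema3d null guts, and all 5 members of the Fc receptor, adaptor and Trem2 group were above 0 there. Laptm5 had levels of 241, 222, 298 and 222 in the authors' deposited table, with log2 changes of -0.12 ± 0.11, 0.31 ± 0.12 (p = 0.00883, adjusted p = 0.878) and -0.12 ± 0.11. C1qc, given above, was the remaining gene, with p = 0.0203 and adjusted p = 0.970 for Sema3d null in the authors' deposited table.

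Exon length moved with the coefficients of the whole Sema3d null table. Genes with under 2000 bases of exon and fitted at 50 or more had a median of 0.12 (log2) by the authors' deposited table, those of 2000 to 4000 bases 0.05, and those of at least 4000 bases -0.04. The members followed the same order, with medians of 0.28 (15 genes), 0.27 (10 genes) and 0.00 (14 genes), as computed from the authors' deposited table. Members of any level were taken in all comparisons by length, while all genes were those fitted at 50 or more, so the sets are unlike in level. Fcer1g (874 bases), Fcgr3 (1736) and C1qc (1931) are among the short genes and Laptm5 (3788) in the middle class. In Ret null guts of the authors' deposited table the medians of all genes ran from 0.04 through 0.02 to -0.00, and those of the members were -0.12, -0.06 and -0.25. The part of length in the members' values was not tested.

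Double null guts gave values between the others at the median. In the authors' deposited table, 21 of 39 members were below 0 and the median was -0.01. At an unadjusted p below 0.05, 2 members (5.13%) were lower and 0 higher in the authors' deposited table, against 3.99% and 2.72% of all genes, so the members' share was near the background. Cybb had levels of 47.5, 38.4, 43.0 and 33.5 in the 4 genotypes (wildtype, then Ret, Sema3d and double null) of the authors' deposited table. Its log2 changes in the authors' deposited tables were -0.30 ± 0.28, -0.14 ± 0.20 and -0.50 ± 0.20 (p = 0.0128). Ly86, the MD-1 protein that partners a relative of the Toll-like receptors, had levels of 24.8, 18.4, 24.2 and 14.6 in the authors' deposited table. The log2 changes of Ly86 in the authors' deposited tables were -0.43 ± 0.35, -0.03 ± 0.37 and -0.76 ± 0.34 (p = 0.0259, adjusted p = 0.541). Both had their lowest level in the double null.

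**Figure D3:**
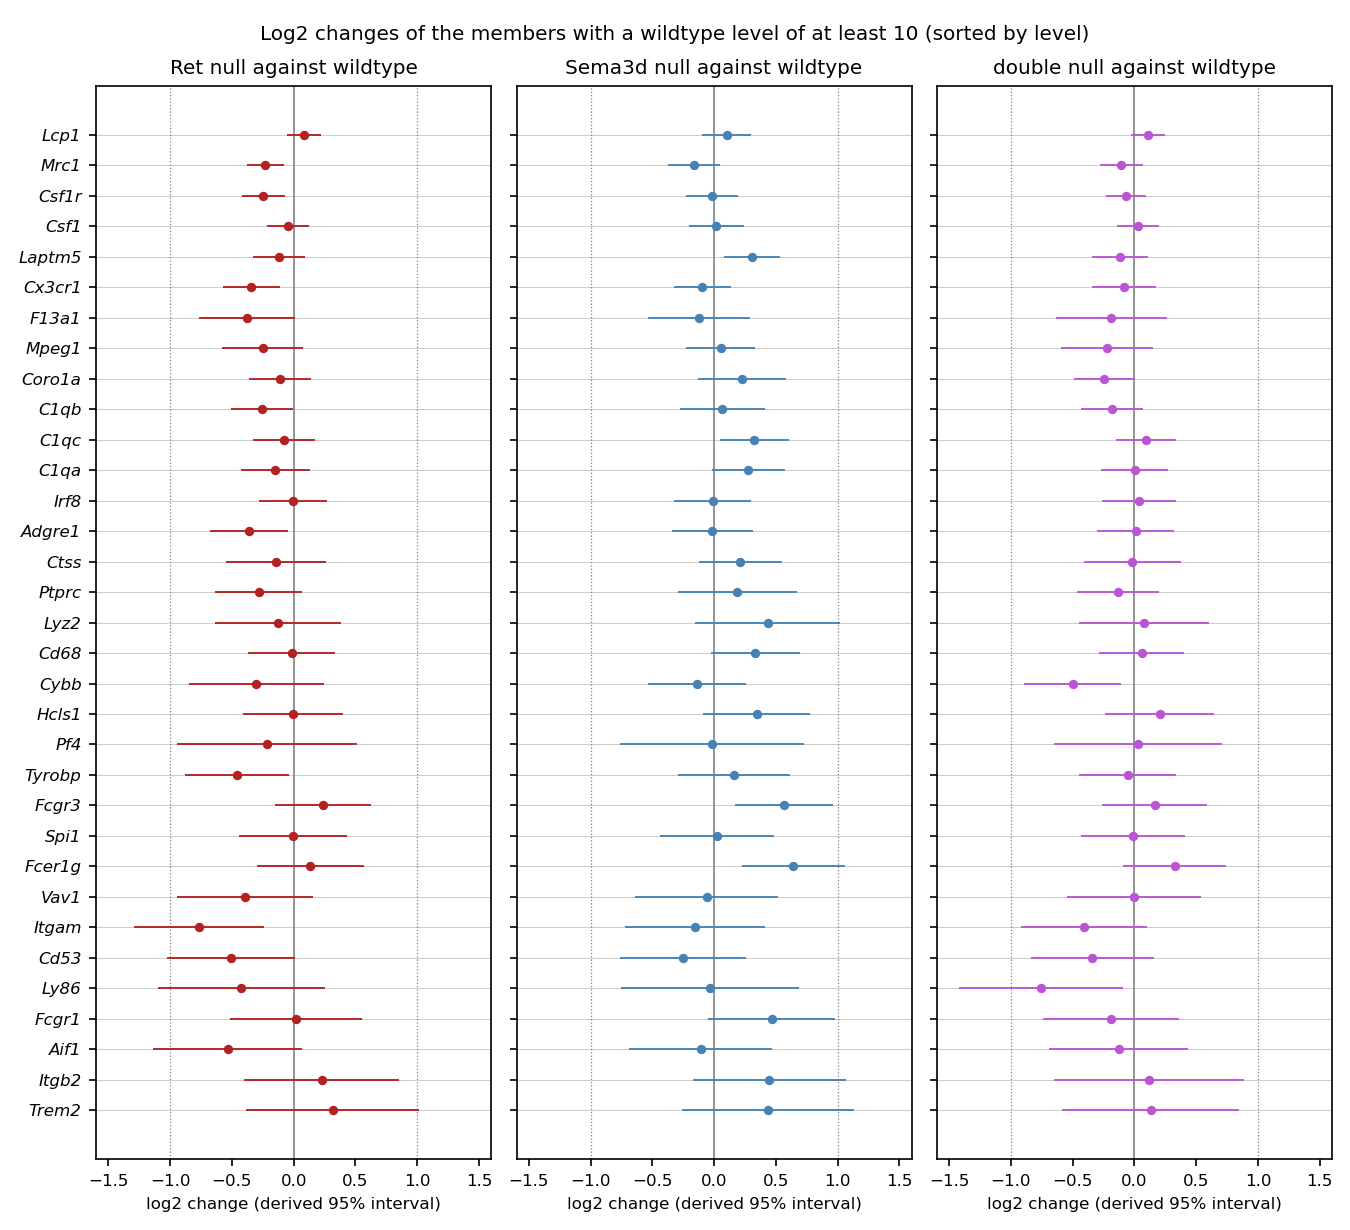
Log2 changes against wildtype (x axis) of the members with a wildtype level of at least 10, sorted by that level, for guts null for Ret, Sema3d or both (6 null against 6 wildtype guts each, the same wildtype guts in all panels). Points are the deposited coefficients, bars the derived 95% intervals, dotted lines 2-fold changes; in the Ret null panel most abundant members lie slightly left of 0, from F13a1 at -0.38 to Irf8 at -0.01, with Lcp1 at 0.08.

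For the interaction, the members gave 23 coefficients below 0 and 16 above, and their median was -0.04, by the authors' deposited table. At an unadjusted p below 0.05, 2 members (5.13%) were higher and 1 (2.56%) lower in the authors' deposited table, against 4.07% and 2.72% of all genes. The higher ones were Cx3cr1 at 0.36 ± 0.16 (p = 0.0287, adjusted p = 0.642) and Mrc1 at 0.28 ± 0.14 (p = 0.0435, adjusted p = 0.713) in the authors' deposited table. The lower one was Fcgr3 at -0.63 ± 0.26 in the authors' deposited table (likelihood-ratio p = 0.0158, adjusted p = 0.562). A positive coefficient means that the Ret change was higher, or less negative, where Sema3d was also lost. Of the other members named above, the authors' deposited table gave Itgam 0.51 ± 0.38, Adgre1 0.39 ± 0.22, Tyrobp 0.24 ± 0.30 (all 3 at an adjusted p of 0.792 or more), C1qb -0.00 ± 0.24, C1qc -0.16 ± 0.18, Fcer1g -0.40 ± 0.28, Laptm5 -0.30 ± 0.17, Cybb -0.06 ± 0.33 and Ly86 -0.29 ± 0.50. Exon length moved with this table too: medians of all genes in the authors' deposited table were -0.16, -0.06 and 0.05 from the shortest to the longest class, and those of the members -0.16, -0.21 and 0.13.

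How large a change could have been called depended on the level of the gene. For the 6 members with a wildtype level of at least 200, a log2 change of 0.22 to 0.38 in Ret null guts would have reached the p of the last called gene, as computed from the authors' deposited table. For the 12 members between 50 and 200 the range was 0.41 to 0.84, for the 15 between 10 and 50 it was 0.64 to 1.19, and for the 6 below 10 it was 1.34 to 5.50. In Sema3d null guts, where few genes of the whole table were called, the 6 abundant members would have needed 0.44 to 0.53 by the same reckoning from the authors' deposited table. The derived 95% interval lay wholly within a 2-fold change in either direction for 29 of 39 members after loss of Ret, 30 after loss of Sema3d, 33 after loss of both and 23 in the interaction. The 5 least abundant members had wide errors throughout the authors' deposited tables. Cd163 had log2 changes of -0.38 ± 1.71, 0.28 ± 1.5 and -0.38 ± 1.70 with an interaction of 0.20 ± 2.03, and Timd4 had 0.02 ± 1.1, 0.44 ± 1.02 and 0.68 ± 1.1 with 0.23 ± 1.32 in the authors' deposited tables. Folr2 had 0.43 ± 0.59, 0.85 ± 0.55 and 0.38 ± 0.59 with an interaction of -0.93 ± 0.71, and Ms4a7 had -0.15 ± 0.46, 0.05 ± 0.44 and 0.10 ± 0.43 with 0.23 ± 0.57 in the authors' deposited tables. Changes of these genes were not detectable in these data unless severalfold.

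**Figure D4:**
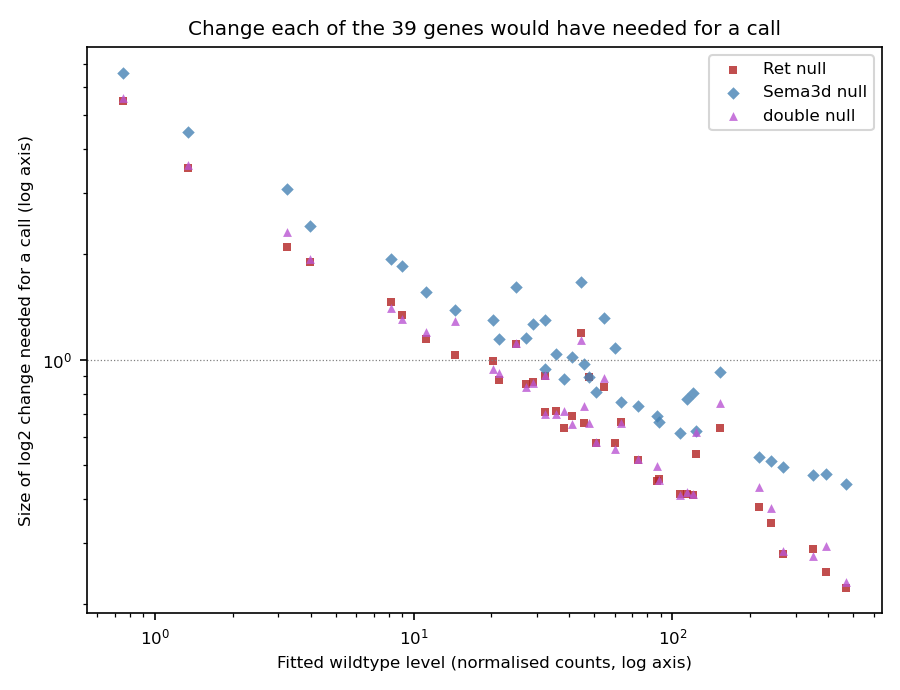
Size of the log2 change that each of the 39 genes would have needed for a call (y axis, log axis), against its fitted wildtype level (x axis, normalised counts, log axis), for the 3 comparisons. Values fall from above 5 at a level near 1 to between 0.22 and 0.53 for the 6 most abundant genes, and Sema3d null values mostly lie above the others.

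Downstream of the receptor, 24 genes of CSF1 receptor signalling that are no members were examined, adaptors and kinases that many other cells of the gut also use. In Ret null guts of the authors' deposited table, where 2.66% of all genes were called, 4 of the 24 were called lower and 0 higher: Gab2, a docking adaptor, at -0.43 ± 0.07 (adjusted p = 1.24e-07), the Src-family kinase Fyn at -0.36 ± 0.06 (2.43e-07), the white cell PI3-kinase subunit Pik3cd at -0.50 ± 0.12 (0.00213) and the transcription factor Stat3 at -0.29 ± 0.07 (0.00325). In double null guts of the authors' deposited table, where 2.1% of all genes were called, 3 were called lower, Pik3cd at -0.52 ± 0.12 (adjusted p = 0.00154), Fyn at -0.25 ± 0.06 (0.00235) and Gab2 at -0.26 ± 0.07 (0.0115). At an unadjusted p below 0.05 the counts were 6 lower for Ret null (5.47% of all genes were lower and 2.96% higher by that rule) and 3 lower and 2 higher for double null (3.99% and 2.72% of all). For Sema3d null and the interaction 0 of the 24 were called, with 1 higher and 1 lower, and 1 higher, at an unadjusted p below 0.05. There the smallest p were those of Cbl, the ubiquitin ligase that ends receptor signalling, at -0.25 ± 0.09 (adjusted p = 0.876) and 0.35 ± 0.11 (0.177) in the authors' deposited tables. The medians of the 24 in the authors' deposited tables were -0.03, 0.01 and -0.01 in the Ret, Sema3d and double null. Enteric neuron markers were lower in the same genotypes, by the sums given above, and their part in these calls was not tested.

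Of 14 further transcription factors known from macrophages, Zeb2 was called lower in Ret null guts of the authors' deposited table, at -0.51 ± 0.07 (adjusted p = 7.23e-11), and 0 were called higher. Zeb2, which is also a regulator of neural crest cells, was at -0.17 ± 0.08 in double null guts (adjusted p = 0.550), with an interaction of 0.43 ± 0.13 (adjusted p = 0.186), in the authors' deposited tables. Id3 had a Ret null change of -0.15 ± 0.06 (adjusted p = 0.175) in the authors' deposited table. The C/EBP factor Cebpb had 0.33 ± 0.15 in Sema3d null and 0.29 ± 0.13 in double null guts of the authors' deposited tables, with adjusted p of 0.541 or more. Of the other growth factors and receptors of blood cells, 16 of 18 were listed for Ret null, and Tgfb2 alone was called, with -0.28 ± 0.08 in the authors' deposited table (adjusted p = 0.0278). Among 16 chemokine ligands and receptors of myeloid cells 0 were called in any of the authors' deposited tables, and at an unadjusted p below 0.05 there was 1 higher for double null and 1 lower for Sema3d null, the latter being Ccl4, whose fit is unbounded at a wildtype level of 0.849 and gives no fold change. In Ret null guts of the authors' deposited table Ccl9 was at -0.54 ± 0.38, and in double null guts the smallest p belonged to Cxcl12 at 0.24 ± 0.10 (adjusted p = 0.479) and Ccr1 at -0.46 ± 0.26.

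For the clearance of dying cells, 17 genes were listed. In double null guts of the authors' deposited table, 2 were called higher: the scavenger receptors Cd36 at 0.54 ± 0.12 (adjusted p = 3.19e-04) and Stab2 at 0.41 ± 0.11 (0.0140). Both are also made by endothelium, whose markers summed to 119% of wildtype in those guts, and its part was not tested. In Sema3d null guts of the authors' deposited table Cd36 had 0.44 ± 0.17 (adjusted p = 0.884). The receptor kinase Tyro3 had -0.18 ± 0.06 in Ret null guts of the authors' deposited table (adjusted p = 0.122). Of 24 genes of microglia and other tissue macrophages, 22 were listed for Ret null. None of these (0) passed in any of the authors' deposited tables, with 1 lower for Ret null and 1 higher for Sema3d null at an unadjusted p below 0.05. Of the 21 with a bounded fit for Ret null, 15 had a coefficient below 0 in the authors' deposited table, and their median was -0.14. The smallest p in Sema3d null guts was that of the lipid carrier Apoe, at 0.47 ± 0.23 in the authors' deposited table, with an adjusted p at 1 after rounding. Over the 6 lists together (112 distinct genes), the authors' deposited tables called 6 genes lower and 0 higher of 108 listed without Ret, 0 of 109 without Sema3d, 3 lower and 2 higher of 110 without both, and 1 of 110 in the interaction. The shares called among all genes were 2.66%, 0.0404%, 2.1% and 0.164% in that order.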

How the data were processed

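Poly-A RNA-seq of 24 guts is held in 4 tables of model results. DESeq 1.24.0, RSEM 1.2.31, STAR (version not given in the sources used here), Trimmomatic 0.36 and FastQC 0.11.5 are named without role or order, with GRCm38 (mm10), per the submitters' processing notes. The authors deposited coefficients of the intercept, sex and genotype, per the file headers, which were read as log2 coefficients (below). Deviances, used as a score of fit, and raw and adjusted p-values were deposited beside these. Interaction coefficients were read the same way. Gene name and gene type have exchanged headers in the Ret null table, and columns were read by content. No table gives counts or values per library, so no count test was run and precision rests on the deposited deviances.

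A chi-square test of the deviance difference (1 degree of freedom) returned the deposited p-values within 4.91e-09, and Benjamini-Hochberg adjustment returned the adjusted ones. The log base is not named; base 2 gave summed wildtype levels of 11.6 to 12.0 and the natural base 435 to 458, in units of 1e6, so base 2 was used. Derived errors are the size of a coefficient over the square root of the deviance difference (tested on simulated data), and intervals are 95% normal intervals on them, which cover the spread the authors' model estimated. Levels are intercepts taken out of the log2 scale, as the mean of both sexes, times the change. All fits of members converged. Python 3.11.15, pandas 2.3.3, numpy 2.4.6 and scipy 1.17.1 were used. Exon lengths are unions of GENCODE M21 exons, where 30 of the 39 members have the same versioned ID; promoters are RefSeq's.

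Members and gene lists were chosen with earlier results of these data known. Named are the CSF1 receptor axis, members called or with an unadjusted p below 0.05 in any table, the 5 highest and 5 lowest members by wildtype level, and from each other list the genes called and some of the 2 with the smallest p per table; some genes that this rule names are not reported here. Values of further members, Cx3cl1 and the markers were picked after they were seen, as were the length classes. The labels do not say that guts of a genotype came from separate litters. Alternatives tried were an adjusted p threshold of 0.1, adjustment over genes at 10 or 50 and above, the Benjamini-Yekutieli adjustment, the 24-gut fit, centring on all genes, and subsets of members.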

Additional observations from a re-analysis of the deposited data

Results flagged for a closer look

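Itgav, the integrin alpha V chain used by phagocytes to bind dying cells and made by many other cells, was the single gene of the 6 lists whose Ret change differed with and without Sema3d by the authors' own test of that difference. Its interaction coefficient in the authors' deposited table was 0.47 ± 0.11 on the log2 scale (p = 2.93e-05, adjusted p = 0.0265). Fitted levels in the authors' deposited table were 1629 in wildtype, 1470 in Ret null, 1306 in Sema3d null and 1631 in double null guts. The Ret change was thus -0.15 with Sema3d intact and 0.32 without it in the authors' deposited table. In the 12-gut tables Itgav was not called in any null: the authors' deposited tables gave -0.15 ± 0.05 for Ret null (adjusted p = 0.107), -0.32 ± 0.10 for Sema3d null (0.530) and 0.00 ± 0.05 for double null.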

How the results depend on the processing

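The count of called members stayed at 0 in each table under adjustment over genes fitted at 10 or more, or at 50 or more. It was also 0 under the stricter Benjamini-Yekutieli adjustment, which cannot call a gene that the deposited adjustment left uncalled. At an adjusted p threshold of 0.1 it was 1 for Ret null (Mrc1) and 0 for the other tables. The median log2 change of the members kept its direction in the 24-gut fit, after centring on all genes and in the subsets tried, from -0.15 to -0.13 for Ret null, 0.07 to 0.16 for Sema3d null and -0.04 to -0.00 for double null. Of 117 single values (39 members in 3 comparisons), 117 moved by less than their own error in the 24-gut fit, by at most 0.23, and 117 did so after centring, where 1 changed sign. The 24-gut fit leaves each genotype free to differ and holds the same guts. Small moves of values and medians in it were therefore built in and are no separate check. No paired analysis was possible because the tables give no value per gut, and leaving out single guts was not run for the same reason. Errors were widest for the 6 members with a level below 10.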

Other observations

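Sex, a covariate in each model, had no deposited p-value, so its coefficients are a description. In the authors' deposited table of 24 guts 25 of 39 members were lower in males, with a median log2 coefficient of -0.03, while 47.2% of all genes fitted at 50 or more were lower in males. In the 12-gut tables, which share their wildtype guts, 31, 32 and 30 of 39 members were lower in males for Ret null, Sema3d null and double null. Their medians were -0.15, -0.08 and -0.10 in the authors' deposited tables. Of all genes fitted at 50 or more, 48.6%, 45.6% and 51.2% were lower in males there, in the same order. Pf4, the platelet factor 4 gene, was at -0.48 and Csf1 at -0.10 in the authors' deposited table of 24 guts, while Csf1r was at -0.02 and Cx3cr1 at 0.00.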
